A study of Mus musculus with 14 samples.

Results

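The genes described here are 9 immediate early genes, 8 with the family names Egr, Nr4a, Klf and Ier and the clock gene Per1, followed in Clu KO HSCs from old mice to see what the loss of Clu changes in aged stem cells. The members, Egr1, Nr4a1, Nr4a2, Klf4, Klf6, Ier2, Ier3, Ier5 and Per1, were taken by name, with earlier results of these data known. All 9 were among the 583 genes with values for this comparison, and given that choice their presence is not a finding. HSCs came from 24-month-old mice of both sexes that carried a Rosa26-Cas9 knock-in, and control cells carried it as well. They were transduced with lentivirus that delivered guides against Clu (sgClu oHSCs, 4 libraries) or a control guide (sgCtrl oHSCs, 3 libraries), with mCherry as the mark of transduction. The CD45.2 cells were given with competitor cells of the CD45.1 allele to CD45.1 mice after lethal irradiation, and donor-derived HSCs were sorted 4 months later and profiled with SMART-Seq chemistry. The sample labels call the sorted cells hematopoietic stem and progenitor cells. The guides against one gene were used as a pool of 3, so that a library can hold cells with different edits.

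Clu itself was not among the 583 genes, and the labels of the libraries could therefore not be checked against the targeted gene. All 583 genes are in the study's longer list of genes called for this comparison, so that a p-value computed from them is not independent evidence of a difference. Of the 583, 2 are listed at 0 in all 7 libraries. Values were read as FPKM, fragment numbers divided by transcript length and by library size, although the headers name no unit. As values per length they can be compared between genes. Over the 583 genes they summed to between 10841 and 12502 FPKM in sgClu and between 17005 and 18573 FPKM in sgCtrl oHSCs, and the depth of the libraries is unknown. The paper states that its sequencing used biological replicates, and elsewhere that its analyses drew on both biological and technical ones. Nothing in the labels ties a library to a separate donor or recipient, and p-values then measure the spread between these libraries, which may be technical. Of 16 HSC markers, Procr and Fgd5 had values in this table, which is too few to check the cell type.

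Immediate early genes are transcribed within minutes of a stimulus from factors that the cell already holds, without new protein synthesis, and most of their transcripts are short-lived. In HSCs, Egr1 and the Nr4a receptors are known for their part in quiescence. The same genes respond to the handling of tissue and to cell sorting, because enzymes, shear and warming act as stimuli.

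The 3 guides show where Clu was targeted. They are printed 5′ to 3′ with the adjoining PAM in capitals, and their positions were found by matching them to the mm10 transcripts of Clu.
Clu guide 1: gagattcagaacgccgtccaGGG
Clu guide 2: agtgtgtaacgagaccatgaTGG
Clu guide 3: aacatgttgtggaagctcggAGG
Guide 1 matched the plus strand at chr14:65973360-65973379 in exon 3, guide 2 the plus strand at chr14:65974896-65974915 in exon 4, and guide 3 the minus strand at chr14:65975875-65975894 in exon 5 of the 9 exons of the transcript ENSMUST00000022616.13. All 3 sites lay in coding sequence.

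RefSeq promoter windows were at hand for 7 of the 9 members, in 8 windows, with Egr1 and Ier2 missing. The 250 bases before the start are printed for 4 members with matches to the CRE core motif, the letters of a cAMP response element that are read by CREB (cAMP response element binding protein), and for Ier5 as a member without one. Builds are GRCm38.p6, each sequence runs 5′ to 3′ on the strand of the gene, and capitals mark CRE core motifs (TGACG on either strand), E-boxes (CACGTG) and TATA boxes (TATAAA on either strand).
Nr4a1, plus strand, chr15:101266596-101266845: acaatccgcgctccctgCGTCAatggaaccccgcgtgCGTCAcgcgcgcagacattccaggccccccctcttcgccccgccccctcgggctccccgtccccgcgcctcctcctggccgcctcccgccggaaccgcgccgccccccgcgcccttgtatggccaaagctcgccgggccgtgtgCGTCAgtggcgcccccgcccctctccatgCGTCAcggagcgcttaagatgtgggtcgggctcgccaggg
Nr4a2, minus strand, chr2:57124004-57124253: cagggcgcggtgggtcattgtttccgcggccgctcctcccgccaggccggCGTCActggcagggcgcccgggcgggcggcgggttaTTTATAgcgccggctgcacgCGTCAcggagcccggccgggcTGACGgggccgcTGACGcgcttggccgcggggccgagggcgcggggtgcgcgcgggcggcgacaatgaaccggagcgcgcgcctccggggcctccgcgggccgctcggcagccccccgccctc
Klf4, minus strand, chr4:55532476-55532725: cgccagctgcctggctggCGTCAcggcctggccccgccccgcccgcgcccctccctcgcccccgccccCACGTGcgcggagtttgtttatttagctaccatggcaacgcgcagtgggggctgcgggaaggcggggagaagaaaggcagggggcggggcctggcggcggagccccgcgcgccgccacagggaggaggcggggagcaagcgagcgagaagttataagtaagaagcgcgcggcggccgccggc
Per1, second window, plus strand, chr11:69099902-69100151: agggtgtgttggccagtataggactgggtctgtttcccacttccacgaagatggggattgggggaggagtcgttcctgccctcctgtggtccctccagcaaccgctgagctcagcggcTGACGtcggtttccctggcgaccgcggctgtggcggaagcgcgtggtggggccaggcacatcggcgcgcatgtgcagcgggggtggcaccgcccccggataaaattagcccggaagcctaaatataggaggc
Ier5, minus strand, chr1:155099637-155099886: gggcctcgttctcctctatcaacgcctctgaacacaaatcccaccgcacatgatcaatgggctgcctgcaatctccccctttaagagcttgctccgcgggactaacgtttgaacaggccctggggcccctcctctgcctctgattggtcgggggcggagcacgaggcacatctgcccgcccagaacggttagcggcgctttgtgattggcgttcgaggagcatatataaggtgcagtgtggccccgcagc

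CRE core motifs were found in 5 of the 8 windows, 4 matches each before Nr4a1 and Nr4a2 and 1 each before Klf4 and in both windows of Per1. Counted from the RefSeq transcript start behind the window of Nr4a1, its 4 matches began at positions -233, -213, -69 and -40. This start, like both starts used for Per1, lies inside the gene as GENCODE annotates it, downstream of the first annotated base. The windows of Ier3, Ier5 and Klf6 held none. The core motif was present in 32.1% of the 514 windows of the listed genes and in 17.8% of all 32851 windows. The full CRE (TGACGTCA), which contains the core motif, the AP-1 site (TGACTCA on either strand) and the CArG box of serum response factor had no match in any of the 8 windows. They lay in only 3.5%, 6.03% and 1.36% of the windows of listed genes, so that their absence from 8 windows is not unusual. Egr1 and Ier2 had no window to search. E-boxes lay before Klf4, Klf6 and Per1, against 10.7% of the windows of listed genes, and GC boxes (GGGCGG on either strand) lay in all 8 windows, against 58.0%. A NF-kB site was matched before Ier3 only among the members, against 5.64% of the windows of listed genes. The TATA box letters were matched before Nr4a2 only, as TTTATA at -164 to -159, against 9.53%. Variants of these letters, such as the tatataag in the printed Ier5 window, were not searched. These matches describe letters in a window and say nothing of a factor being bound.

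**Figure D1:**
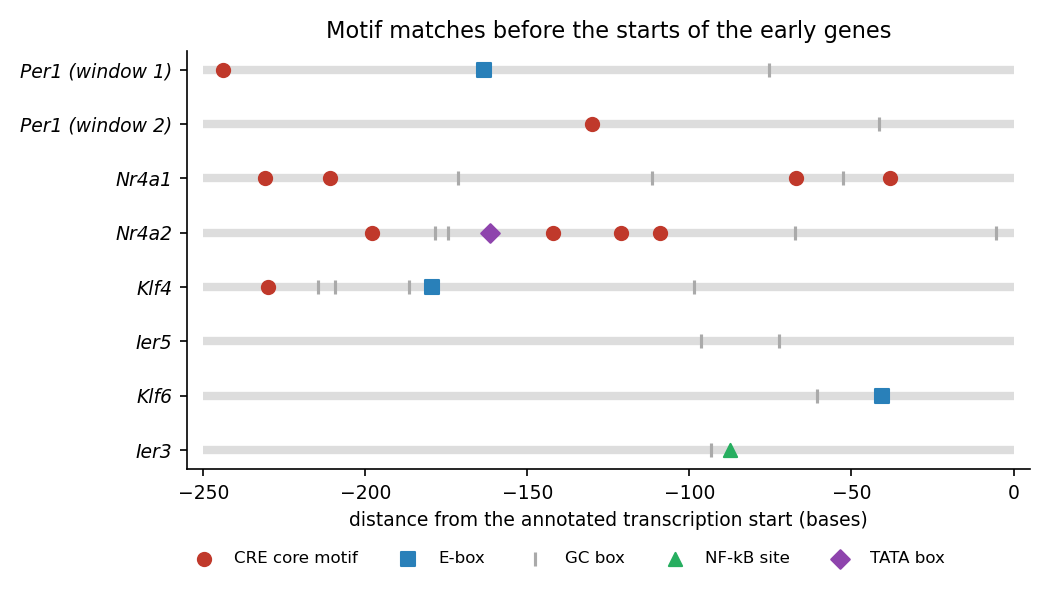
Motif matches in the 8 promoter windows of 7 early genes, with the distance from the annotated transcription start in bases on the x axis and one line per window, ordered by the fold change of the gene. Nr4a1 and Nr4a2 carried 4 CRE core motifs each (red circles), and the windows of Ier5, Klf6 and Ier3 carried none.

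In the deposited values all 9 early genes were lower in sgClu than in sgCtrl oHSCs, with log2 fold changes from -0.56 for Ier3 to -1.39 for Per1, although the direction of Ier3 turned under all 3 rescalings of the libraries and that of Ier2 under 1 of them. All 9 passed both limits of the study's methods (p under 0.05 and an absolute log2 fold change above 0.5), where 50.1% of the 583 genes did so in this direction. For each member the groups did not overlap, every sgClu library being the lower, which held for 52.5% of all genes. The median log2 fold change was -1.10 over the members and -0.52 over the 583 genes. Genes were tested with limma on log2(FPKM + 1), a scale that understates the change of genes with low values, and adjusted p-values are Benjamini-Hochberg values over the 583 genes. In such bulk libraries fewer cells that express a gene and less RNA per cell cannot be told apart.

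**Figure D2:**
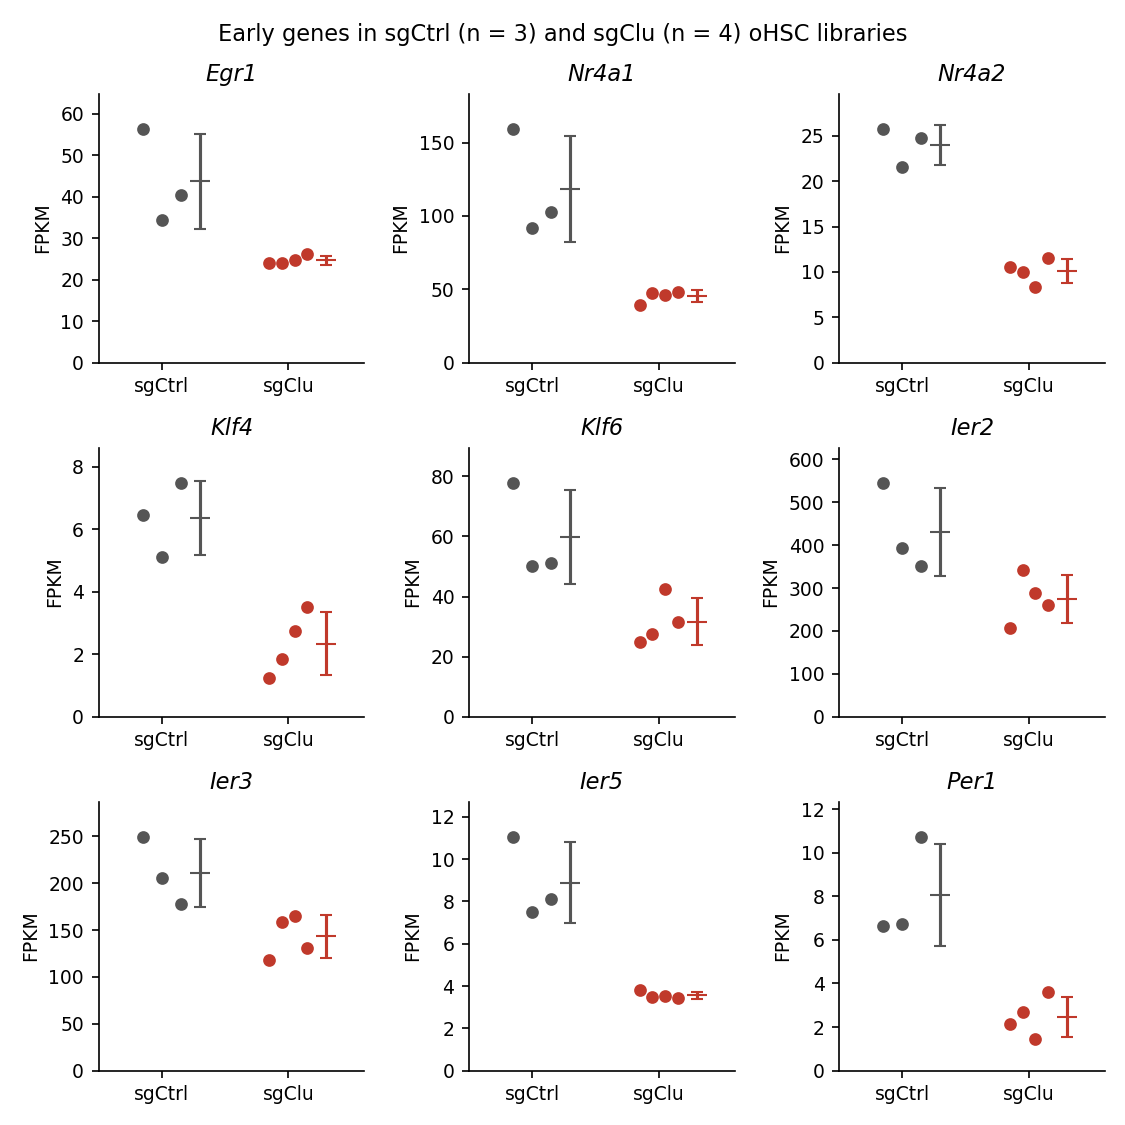
FPKM of the 9 early genes in each library, with one panel per gene and a linear y axis from 0. Points are libraries in replicate order, and the bar beside them is the mean with its SD (sgCtrl, grey, n = 3, and sgClu, red, n = 4). In every panel the sgClu libraries lie below the sgCtrl libraries, with the narrowest gap for Ier2.

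Among the members, the orphan nuclear receptors Nr4a1 and Nr4a2 had some of the largest differences. Nr4a1 (Nur77), found on mm10 at chr15:101254269-101274795, measured 159.6, 92.1 and 103 FPKM in sgCtrl replicates 1 to 3 and 39.2, 47.2, 46.1 and 48.2 FPKM in sgClu replicates 1 to 4. The lowest sgCtrl library was 1.91 times the highest sgClu library. Its mean level was 118 ± 36.2 FPKM in sgCtrl (SD, n = 3) and 45.2 ± 4.06 FPKM in sgClu libraries (SD, n = 4). The difference is -1.33 ± 0.20 on the log2 scale (± SE, adjusted p = 0.00305 by limma). Nr4a2 (Nurr1), at chr2:57106830-57124003, measured 25.8, 21.5 and 24.7 FPKM in sgCtrl and 10.5, 9.94, 8.37 and 11.5 FPKM in sgClu replicates. Both groups were tight and did not overlap. Its log2 difference was -1.18 ± 0.14 (± SE, adjusted p = 0.00219 by limma). The level of Nr4a1 stood to that of Nr4a2 at 4.88 ± 1.14 (SD, n = 3) in sgCtrl and at 4.54 ± 0.766 (SD, n = 4) in sgClu libraries, and the ratios of the groups overlapped.

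Egr1, a zinc finger transcription factor at chr18:34859823-34864984, measured 56.4, 34.3 and 40.4 FPKM in sgCtrl replicates and 23.98, 23.96, 24.7 and 26.2 FPKM in sgClu replicates. The sgClu libraries were within a coefficient of variation of 4.22%, against 26.1% in sgCtrl, where replicate 1 stood highest. The log2 difference was -0.77 ± 0.17 (± SE, adjusted p = 0.00979 by limma), and the lowest sgCtrl library was 1.31 times the highest sgClu library.

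The Krüppel-like factors Klf4 and Klf6, zinc finger transcription factors with roles in differentiation, were both lower. Klf4, at chr4:55527143-55532466, measured 6.47, 5.13 and 7.498 FPKM in sgCtrl and 1.25, 1.84, 2.76 and 3.52 FPKM in sgClu replicates. It was spread more widely among the sgClu libraries (coefficient of variation 42.8%) than any other member. The log2 difference was -1.18 ± 0.25 (± SE, adjusted p = 0.00791 by limma). Klf6, at chr13:5861482-5870394, measured 77.9, 50.1 and 51.3 FPKM in sgCtrl and 25.0, 27.7, 42.5 and 31.5 FPKM in sgClu replicates. Here sgCtrl replicate 1 and sgClu replicate 3 stood above the others of their groups, and the groups did not overlap. The log2 difference was -0.89 ± 0.23 (± SE, adjusted p = 0.014 by limma).

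The Ier genes, which share a name for early induction, covered the range from the highest to nearly the lowest level among the members. Ier2, which encodes a nuclear protein and lies at chr8:84661331-84662852, measured 546, 393 and 351 FPKM in sgCtrl and 207, 343, 288 and 259.5 FPKM in sgClu replicates. The lowest sgCtrl library was 1.03 times the highest sgClu library, so that the groups were next to each other. Its log2 difference was -0.64 ± 0.22 (± SE, adjusted p = 0.0299 by limma), and without sgCtrl replicate 1 it was -0.46 and no longer past the limits. Ier3 (IEX-1), which affects cell survival under stress and lies at chr17:35821684-35822923, measured 249.9, 206 and 178 FPKM in sgCtrl and 118, 159, 165 and 131 FPKM in sgClu replicates. Again the groups were close, with a ratio of 1.07 between the nearest libraries. The log2 difference was -0.56 ± 0.18 (± SE, adjusted p = 0.0266 by limma), and it was -0.43 without sgCtrl replicate 1 and -0.47 without sgClu replicate 1, both no longer past the limits.

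Ier5, known as a cofactor of heat shock factor 1, lies at chr1:155096361-155099636. It measured 11.1, 7.48 and 8.10 FPKM in sgCtrl and 3.82, 3.50, 3.53 and 3.42 FPKM in sgClu replicates. The lowest sgCtrl library was 1.96 times the highest sgClu library, the widest gap among the 9 members, and the sgClu libraries had a coefficient of variation of 4.85%. Its log2 difference was -1.10 ± 0.15 (± SE, adjusted p = 0.00259 by limma).

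Per1, a repressor of the circadian clock that is also induced as an early gene through CREB, had the largest difference among the members. It lies at chr11:69095217-69109960 and measured 6.66, 6.72 and 10.7 FPKM in sgCtrl and 2.12, 2.67, 1.45 and 3.63 FPKM in sgClu replicates. Its highest sgCtrl library was replicate 3, where most other members were highest in replicate 1. The sgClu mean was 30.7% of the sgCtrl mean, and the log2 difference was -1.39 ± 0.25 (± SE, 95% confidence interval -1.96 to -0.82, adjusted p = 0.00474 by limma). Of a list of 18 other clock genes, Bhlhe40 (-1.75) and Ciart (-1.004) had values, and both were lower past the limits (log2 fold changes in parentheses), where 50.1% of all genes were. With median-of-ratios scaling Ciart was at -0.49 and no longer past them. The exact two-sided permutation test gave each of the 9 members p = 0.0571, the smallest value that 4 libraries against 3 allow.

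The levels of the members ran in sgCtrl oHSCs from Ier2 (430.1 ± 102 FPKM), Ier3 (211 ± 36.3 FPKM) and Nr4a1 (118 ± 36.2 FPKM) through Klf6 (59.8 ± 15.7 FPKM), Egr1 (43.7 ± 11.4 FPKM) and Nr4a2 (24.01 ± 2.23 FPKM) to Ier5 (8.88 ± 1.91 FPKM), Per1 (8.04 ± 2.34 FPKM) and Klf4 (6.37 ± 1.19 FPKM), each as SD with n = 3. Neighbours in this order whose libraries overlapped were Klf6 and Egr1, and Ier5, Per1 and Klf4. In sgClu oHSCs the order of the means was the same, from Ier2 (274 ± 56.4 FPKM) to Per1 (2.47 ± 0.918 FPKM) and Klf4 (2.34 ± 1.002 FPKM, SD, n = 4). There Klf6 overlapped with both Nr4a1 and Egr1, and Per1 with both Ier5 and Klf4.

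The size of the falls depended on how the libraries were scaled. Scaling by median of ratios, by a trimmed mean of log ratios or by column totals over the 583 genes moved the median log2 fold change of all genes from -0.52 to -0.09, -0.07 and -0.12, and it removes part of a one-sided change in a list of selected genes by construction. With median-of-ratios scaling 59 genes were lower and 130 higher past the limits, against 292 and 90 in the deposited values. Nr4a1, Nr4a2, Klf4, Ier5 and Per1 stayed lower past the limits under all 3 scalings, at -0.71, -0.58, -0.69, -0.56 and -0.88 with median-of-ratios scaling, where 10.1% of the genes were lower past the limits (9.61% and 12% under the other scalings). Under that scaling the limma adjusted p = 0.0684 for Klf4 was above 0.05, and the other 4 had a limma adjusted p of at most 0.0313. Egr1 (-0.16) and Klf6 (-0.28) kept their direction and did not pass. Ier2 measured -0.01, 0.0029 and -0.06 and Ier3 measured 0.072, 0.089 and 0.029 under the 3 scalings, so that Ier3 was above 0 under each and Ier2 changed sign between them.

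**Figure D3:**
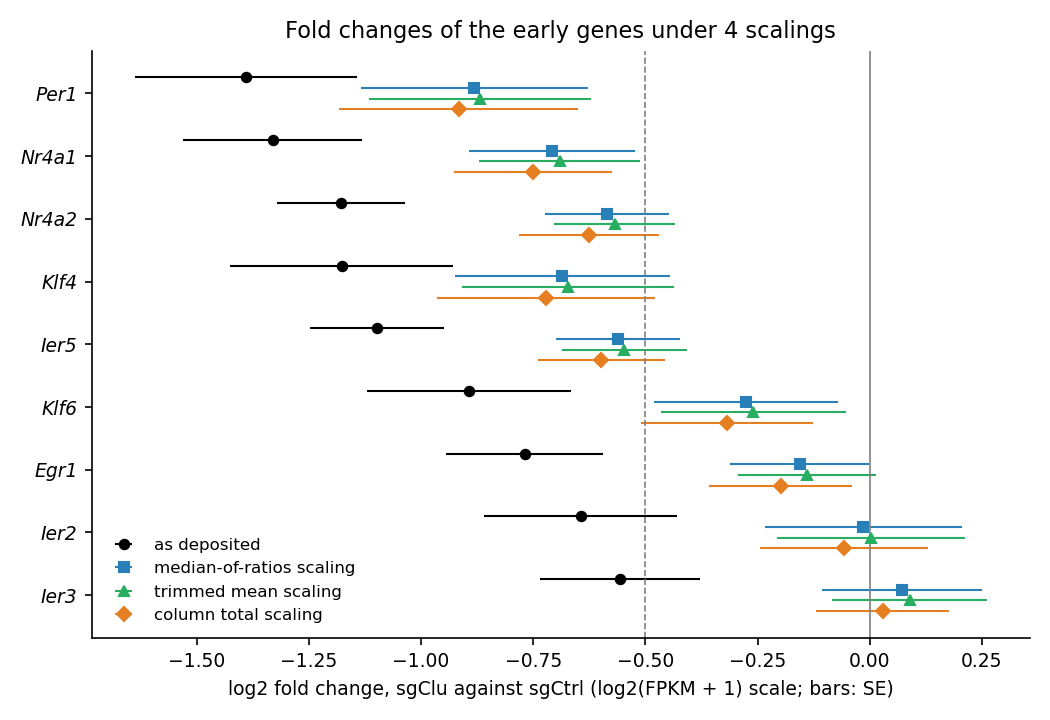
log2 fold change of each early gene, sgClu against sgCtrl oHSCs, in the deposited values and after 3 rescalings, with bars for the SE from limma (n = 4 and 3). The dashed line marks the limit of -0.5. Per1, Nr4a1, Nr4a2, Klf4 and Ier5 stay beyond it under each scaling, whereas Ier3 turns positive under all 3 rescalings and Ier2 under the trimmed mean.

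Ratios between members within a library do not depend on scaling. The level of Nr4a1 over that of Ier3 was 0.639, 0.448 and 0.579 in sgCtrl replicates and 0.333, 0.297, 0.279 and 0.369 in sgClu replicates. The groups did not overlap, and the ratio was lower in every sgClu library. Over all 36 pairs of members, the ratios of the groups did not overlap in 9. Over all pairs of the 542 genes above 0 in every library they did not overlap in 40.2%, so that separated ratios were no more common among the members.

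Read against the mean of the 9 members in the same library, Nr4a1 was lower in every sgClu library than in every sgCtrl library, by 0.33 on the log2 scale, as 1.54% of the 583 genes were. Egr1, Ier2 and Ier3 were higher in this relative measure by 0.23, 0.36 and 0.45, as 50.1% of the genes were. The reference is made of the members, whose median log2 fold change was lower than that of all genes (-1.10 against -0.52). Many genes therefore rise against it, and both shares follow in part from this choice. The other 5 members overlapped between the groups. Each of the 4 differences had p = 0.0571 in the exact permutation test.

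**Figure D4:**
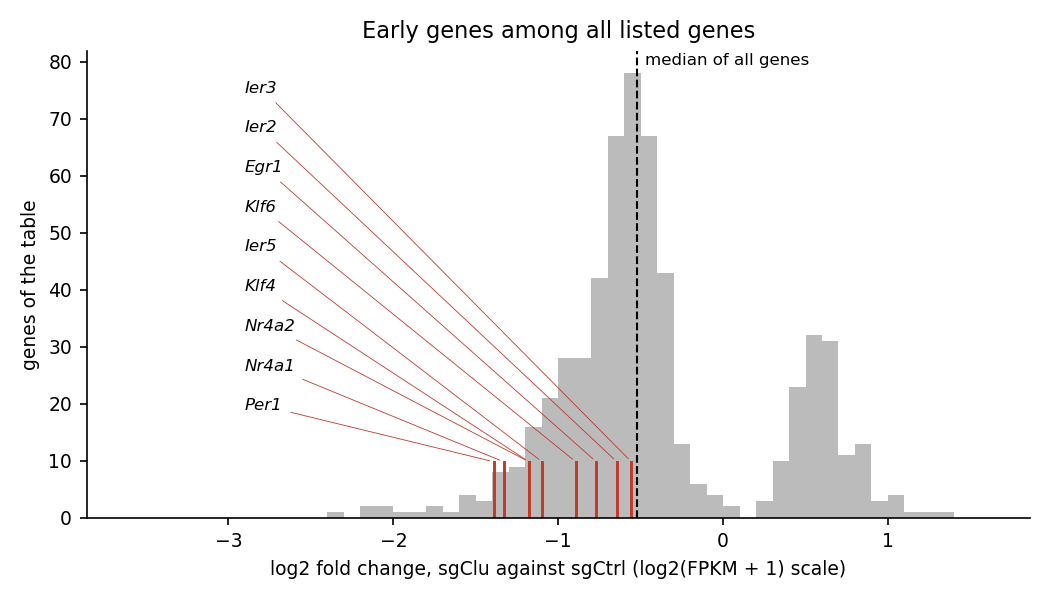
Histogram of the log2 fold change of the 583 listed genes, sgClu against sgCtrl oHSCs, in the deposited values, with counts of genes on the y axis and the early genes marked in red. All 9 lie to the left of the median of all genes (-0.52, dashed), with Ier3 nearest to it. After rescaling Ier3 turns positive under 3 scalings and Ier2 under 1.

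Libraries of one group did not rank alike for every member. sgCtrl replicate 1 was the highest control library for 7 of the 9 members, and it was so for 44.9% of all genes. sgCtrl replicate 2 was the lowest control for 6 members and 41.0% of all genes. Among the sgClu libraries, replicate 1 was lowest for 5 members and 30.5% of the genes, and replicate 4 was highest for 5 members and 29.9% of the genes.

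The 5 genes outside the list whose profile over the 7 libraries was nearest to the mean profile of the members were Neurl3, Fos, Hes1, Cxcl2 and Btg2, out of 179 ranked genes with a higher group mean of at least 10 FPKM. A profile was log2(FPKM + 1) in each library minus the sgCtrl mean of the gene, and likeness was the mean absolute difference between a gene's profile and the members' mean profile over the 7 libraries. It was 0.0971 for Neurl3, a ubiquitin ligase gene, 0.0978 for Fos, a subunit of AP-1, 0.116 for Hes1, a Notch target, 0.144 for the chemokine gene Cxcl2 and 0.146 for the antiproliferative gene Btg2, against a median of 0.341 over the ranked genes. The members themselves lay between 0.122 for Ier5 and 0.348 for Per1. The members' mean profile lay between -0.88 and -1.19 in the sgClu libraries, so that the measure largely ranks genes by a fall of that size. The 5 nearest genes had log2 fold changes from -0.95 for Fos to -1.12 for Btg2, and shared regulation was not tested.

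**Figure D5:**
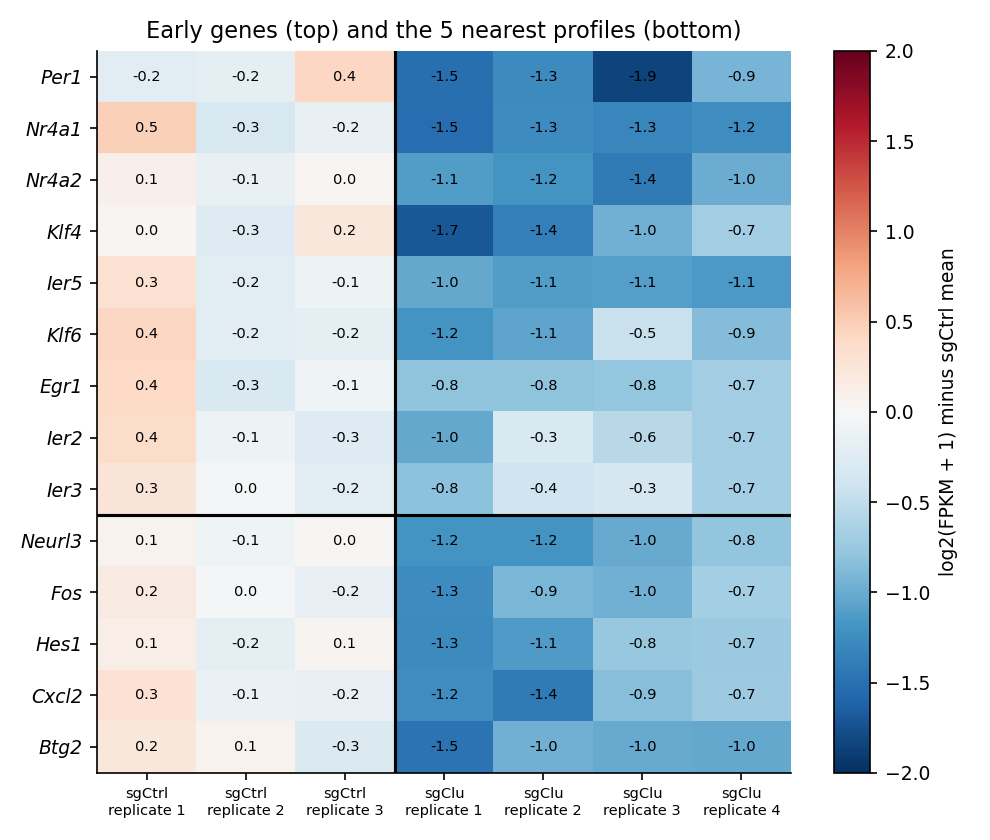
log2(FPKM + 1) of each gene in each library minus its sgCtrl mean, printed in the cells and shown as colour from -2 (blue) to 2 (red), for the 9 early genes (above the line) and the 5 nearest profiles (below it). All cells of the 4 sgClu columns are below 0 in the deposited values, down to -1.9 for Per1 in sgClu replicate 3, whereas Ier3 turns positive after each of 3 rescalings and Ier2 after 1.

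Relatives of the members were described from lists written from general knowledge. Of 16 other Egr, Nr4a, Klf and Ier genes, 4 had values. Nr4a3, Klf9, Klf10 and Klf13 were all lower past the limits in the deposited values, where 50.1% of all genes were. Klf10 turned positive under all 3 scalings. Nr4a3, the third receptor of its family, measured 3.17 ± 1.30 FPKM (SD, n = 3) in sgCtrl and 0.516 ± 0.217 FPKM (SD, n = 4) in sgClu oHSCs, and its log2 fold change was -1.42 with adjusted p = 0.00354 in limma. All 3 Nr4a receptors were therefore lower, and each stayed lower past the limits with median-of-ratios scaling, as 10.1% of all genes did. Of 14 AP-1 genes 7 had values and 6 were lower past the limits, against 50.1% of all genes. The log2 fold changes were -1.80 for Fosl2, -1.02 for Atf3, -0.99 for Fosb and -0.99 for Junb. Mafk did not pass (-0.73, limma adjusted p = 0.0676). With median-of-ratios scaling only Fosl2 of the AP-1 genes stayed past the limits (-1.28). Atf3 was then at -0.43, Fosb at -0.38 and Junb at -0.36.

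Genes listed as feedback inhibitors, most of which end signalling or destabilise early transcripts, were measured in 14 of 24 cases. All 14, Nfkbiz among them, were lower past the limits in the deposited values, where 50.1% of all genes were. Rgs2 and Zfp36l1 turned positive under 2 of the scalings and Zfp36 under 1. The groups overlapped for Dusp2, which lost its call without sgCtrl replicate 1, and Dusp16 lost its call without sgCtrl replicate 3 or any one sgClu library. The largest falls were those of Tnfaip3 (-1.34), a brake on NF-kB, Cish (-1.14), a brake on cytokine signalling, Rgs1 (-1.12) and Sik1 (-0.94). Of 30 other immediate early genes 17 had values and 16 were lower past the limits, with log2 fold changes of -1.73 for Rrad, -1.30 for Id3, -1.25 for Vegfa and -1.24 for Plk2. Btg1 did not pass (-0.48) and turned positive under all 3 scalings. None of the listed genes of these 4 lists was higher past the limits, and the median log2 fold changes were -0.74, -0.99, -0.72 and -0.93 in the order given, against -0.52 over all genes. With median-of-ratios scaling 1 of 4, 1 of 7, 2 of 14 and 5 of 17 stayed lower past the limits, against 10.1% of all genes. Of 30 upstream regulators of early genes, Mapk12, a p38 MAP kinase, had values and measured -0.73. Its mean level was 3.12 FPKM in sgCtrl and 1.36 FPKM in sgClu oHSCs. Mapk12 lost its call without sgCtrl replicate 1 or replicate 3, and with median-of-ratios scaling (-0.31). Since the table holds only part of the genes called in the study, a list member without values cannot be read as unchanged.

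Some markers of handling and of other cells were lower in sgClu oHSCs as well. The heat shock genes Hspa1a and Hspa1b, 2 of a list of 15, summed to between 3.09 and 4.12 FPKM in sgCtrl and between 0.320 and 1.151 FPKM in sgClu libraries. Their log2 fold changes of -0.95 and -1.17 passed the limits, where 50.1% of all genes were lower past them. For both genes the groups did not overlap, as for 52.5% of all genes. With median-of-ratios scaling both stayed lower past the limits (-0.71 and -0.83), as 10.1% of all genes did. Of 16 mature myeloid markers 4 had values, S100a8, S100a9, Cd14 and Ly6c2, and they summed to between 323 and 512.7 FPKM in sgCtrl and between 118 and 230.0 FPKM in sgClu libraries. Ly6c2 made up most of the sum and was lower without overlap between the groups, as 52.5% of all genes were. S100a8, S100a9 and Cd14 did overlap, and sgCtrl replicate 3 lay within the sgClu range for each of them (14.2, 1.87 and 7.36 FPKM). S100a9 (-1.98), Cd14 (-1.60) and Ly6c2 (-1.06) passed the limits and S100a8 (-2.09, limma adjusted p = 0.0658) did not, where 50.1% of all genes were lower past the limits. Cd14 lost its call without sgCtrl replicate 1, and only S100a9 among the 4 stayed past the limits with median-of-ratios scaling. Of 8 mast cell and basophil markers Tpsb2 was present, listed at between 0 and 34.7 FPKM in sgCtrl and at 0 in all 4 sgClu libraries. The HSC marker Procr passed the unadjusted limits (-0.76, limma adjusted p = 0.0585) with groups that overlapped, and Fgd5 did not pass (-0.63). None of the 12 erythroid, 8 megakaryocyte and 12 lymphoid markers had values. The part of handling or of other cells in the values of the early genes was not tested.

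Most members are short genes, with Nr4a1, Nr4a2 and Per1 as the longest at 20527, 17174 and 14744 bases. The median gene length of the 9 was 5324 bases, against 23860 bases for the 503 protein-coding genes of the table and 17400 bases for all 21951 protein-coding genes of GENCODE M21, and their median number of exons was 4, against 8 and 7. Ier2 and Ier5 have 1 exon each, Nr4a1 and Nr4a2 have 8 and Per1 has 23. Repeats of ATTTA, a letter pattern of AU-rich elements, occurred at 2.13 per kilobase of 3′ UTR in the members and at 2.11 in the protein-coding genes of the table. No member shared exons with another annotated gene, and at most 0.268% of the 50-base words of a transcript (Klf4) were found in other genes.

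In the transplanted old and young HSC libraries of the same series, none of the 9 members was among the 1043 genes with values. The paper reports the same number of genes as upregulated in transplanted old against young HSCs, and the listed values may cover only those. A member without values there can therefore not be read as unmeasured or unchanged, and levels there were not analysed here.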

How the data were processed

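RNA-seq values of 4 sgClu and 3 sgCtrl oHSC libraries were analysed. The authors used TrimGalore for trimming, Hisat2 for alignment to mm10, FeatureCounts for counting and DESeq2 for calling genes, and the step from counts to the deposited values is not given in the sources used here. The deposited values were read as FPKM, a unit the authors had normalized for length and library size, although the headers name no unit and TPM is possible. Shared steps left by whole reads were searched among values under 1 and not found (at most 5.56% of genes within a 1% window), so that depth is unknown and no count test was run.

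limma 3.58.1 (R 4.3.3) was fitted to log2(FPKM + 1) over the 583 genes, two-sided. Past the limits means an unadjusted p under 0.05 and an absolute log2 fold change above 0.5. Exact permutation tests of single members used SciPy 1.17.1 over 35 assignments. Gene structures came from GENCODE M21 (GRCm38) and promoters from RefSeq (GRCm38.p6). Positions of the members were joined by symbol.

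Members and lists were chosen with earlier results of these data known. Genes named are the members, up to 4 genes per list with the largest absolute log2 fold change, genes of a list that did not pass, and the 5 nearest profiles. Other names, and the pairs of members whose ratios are given, were chosen after their values were seen. Alternatives covered scaling (3 ways), the pseudocount (0.1), a filter on group means (1 FPKM), the variance model (with a trend, or gene by gene), blocking on replicate number, limits on adjusted p or at a log2 fold change of 1, and omission of single libraries.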

Additional observations from a re-analysis of the deposited data

Results flagged for a closer look

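Among the 9 members, no sgClu library stood apart from the other 3 by Dixon's 95% limit, and the sgCtrl group of 3 was not tested. Of the 64 genes checked (the members, the genes of the lists and the nearest profiles), 5 had such a library, where chance gives about 1 in 20. Dusp1, a phosphatase that ends MAP kinase signalling, was lowest in sgClu replicate 1 at 158.1 FPKM, with the others between 204.1 and 210.2 FPKM. Btg2 was also lowest in sgClu replicate 1, at 22.55 FPKM against 31.4 FPKM or more in the others, and 5 of the members were lowest in that library too. Nfkbiz was lowest in sgClu replicate 3 at 6.773 FPKM, with the others at 9.086 FPKM or more. Plk2 was highest in sgClu replicate 3 at 10.27 FPKM, with the others at 4.74 FPKM or less. Fgd5 was highest in sgClu replicate 4 at 0.5188 FPKM, with the others at 0.2082 FPKM or less.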

How the results depend on the processing

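Nr4a1, Nr4a2, Klf4, Ier5 and Per1 stayed lower past the limits under all 17 alternatives, Egr1 and Klf6 under 13, Ier2 under 11 and Ier3 under 10. Median-of-ratios, trimmed mean and column total scaling each left 5 members past the limits, with 59, 56 and 70 genes lower and median log2 fold changes of the members of -0.56, -0.55 and -0.60, which follows from removing a one-sided shift. A log2 fold change limit of 1 left 5 members, with 69 genes lower and 7 higher, by its construction. In that order of scalings, log2 fold changes turned positive for Ier3 (0.072, 0.089 and 0.029), Klf10 (0.083, 0.10 and 0.041) and Btg1 (0.12, 0.14 and 0.077), under the first 2 for Zfp36l1 (0.0097 and 0.025) and Rgs2 (0.030 and 0.047), and under the trimmed mean for Ier2 (0.0029) and Zfp36 (0.013).

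Leaving out each library in turn left 7 to 9 members past the limits, 241 to 295 genes lower and 69 to 98 higher, with medians of the members from -1.20 to -0.95. Ier2 and Ier3 were lost without sgCtrl replicate 1 and Ier3 without sgClu replicate 1. No pairing of the libraries by replicate number was seen (correlations of deviations for the same number -0.103, 0.0731 and 0.0578, and sgCtrl replicate 1 correlated best with sgClu replicate 2, at 0.177). So few correlations over selected genes cannot settle whether the numbers mark a pairing. With the number as a replicate block, to which sgClu replicate 4 adds no contrast, 7 members passed, with 270 genes lower and 65 higher. The unknown depth and the selection of the 583 genes limit every value here.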
